A study of Rattus norvegicus with 18 samples.

Results

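A set of 10 genes of lipid droplet lipolysis and cholesterol efflux was followed in peripheral blood mononuclear cells (PBMC) of rats on 3 diets. They were chosen by name: the droplet coat proteins Plin3 and Plin2, the lipases Pnpla2, Lipe and Mgll, the lysosomal cholesterol carrier Npc2, the efflux pumps Abca1 and Abcg1, and the uptake receptors Lrp1 and Cd36. On the array 8 of the 10 genes were found by their gene name, Plin3 by a gene identifier and Plin2 by its older symbol ADRP in the probe description. Together they had 12 of 41012 probes, and 11 of the 12 were among the 25205 probes that passed a filter on dim signals.

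The animals were male Wistar rats, 2 months old when feeding began, and they were on their diet for 4 months. The high-protein diet (HPD) gave 10% of energy as fat, 45% as protein, chiefly casein, and 45% as carbohydrate. In the high-fat diet (HFD) fat made up 60%, protein 20% and carbohydrate 20%, and in the low-fat control diet (LFD) fat made up 10%, protein 20% and carbohydrate 70%. HPD and HFD portions were matched each day to the energy that LFD rats had eaten freely, and all rats had fasted for 14 h when killed. PBMC, the lymphocytes and monocytes of blood, were prepared on a Ficoll gradient, and each rat's RNA (Cy5) was hybridised on a 2-colour array against an equimolar pool (Cy3), with 6 arrays per diet. An array is titled as HFD replicate 7 while its source name and description say HPD. It was counted as HPD and is called HPD replicate 7. Each array counts as 1 animal, following the labels.

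Cells store surplus fatty acids and cholesterol as triglyceride and cholesteryl ester in lipid droplets, which perilipins coat. Lipases release the fatty acids in steps, from triglyceride to diglyceride to monoglyceride to glycerol, while lipid taken up with lipoproteins is broken down in lysosomes, from which NPC2 hands cholesterol onward. Surplus cholesterol leaves the cell through ABCA1 and ABCG1 to apolipoprotein A-I and HDL, and in monocytes and macrophages the genes of both pumps are turned on by liver X receptors.

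The promoter windows of Abca1 and Npc2 are shown because their probes had the only unadjusted p-values under 0.05 among the 10 genes. Each window holds the 250 bases before the RefSeq gene start on assembly GRCr8, at chr5:72596474-72596723 for Abca1 and chr6:110149246-110149495 for Npc2, both on the minus strand, printed 5′ to 3′ along the gene. Capitals mark matches, on either strand, to 4 motifs: the E-box CACGTG, the GC box GGGCGG, the CCAAT box CCAAT and the TATA box TATAAA.
Abca1: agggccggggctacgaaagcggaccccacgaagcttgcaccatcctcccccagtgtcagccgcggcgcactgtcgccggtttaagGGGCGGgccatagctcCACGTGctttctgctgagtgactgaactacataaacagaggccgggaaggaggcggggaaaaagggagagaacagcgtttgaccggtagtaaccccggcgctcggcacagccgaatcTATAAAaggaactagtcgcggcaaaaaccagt
Npc2: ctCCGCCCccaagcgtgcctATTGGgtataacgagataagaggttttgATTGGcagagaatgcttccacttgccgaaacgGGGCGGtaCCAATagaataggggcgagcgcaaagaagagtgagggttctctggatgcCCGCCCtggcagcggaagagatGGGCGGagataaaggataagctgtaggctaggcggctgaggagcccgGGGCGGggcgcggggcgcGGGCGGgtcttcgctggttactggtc
The Abca1 window held a TATA box 32 to 27 bases before the start, an E-box at 149 to 144 and a GC box at 165 to 160. The Npc2 window held 6 GC boxes and 3 CCAAT boxes and no match to TATAAA. Of all 33469 windows of this length in the RefSeq table, 12.9% held the TATA box, 5.59% the E-box, 30.5% the GC box and 34% the CCAAT box. Motifs of lipid-sensing nuclear receptors, which capitals would also have marked, were searched on both strands. The liver X receptor repeat, in which any 4 bases separate a pair of AGGTCA half-sites, occurred in 0.00299% of all windows, and the PPAR repeat, in which any 1 base separates them, in 0.0508%. Neither repeat, nor their shared half-site AGGTCA (14.1% of windows), occurred in any of the 9 windows found for 8 of the 10 genes, among which Lipe and Abcg1 were not represented. The GC content was 59.6% for Abca1 and 60.8% for Npc2, against a median of 51.2% over all windows. A match is a stretch of letters and not a known binding site. Only exact letters were searched, so a window without a match can still hold a variant of the motif. The exact liver X receptor repeat matched only 1 of the 33469 windows, so its absence from these 9 windows carries almost no information. Absence of a receptor site was not tested.

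The arrays differed in spread. Between 53.1% and 63.4% of the probes were well above background on each array. LFD replicates 2 and 6 stood apart from the other 16: the median absolute deviation of their log2 ratios was 0.58 and 0.62 against 0.27 to 0.40 elsewhere, they lay at opposite ends of the first principal component, and their ratios correlated with each other at r = -0.50. Results against LFD without 1 or both of them are given where they differ much, and leaving out both was chosen after seeing the data. The most alike pair of arrays was HFD replicates 1 and 6 (r = 0.61), which lay on slides 1 and 3. That these arrays are separate animals rests on the labels alone. The 18 arrays were spread over 5 slides, each scanned as 1 batch, and the first slide held 2 HFD and 2 LFD arrays but no HPD array. Slide 5, with 1 HFD and 1 LFD array, also lacked HPD. Slide 2 held 3 HPD and 1 HFD array but no LFD array, and slide 4 held 2 HPD and 2 LFD arrays but no HFD array. Only slide 3 held all 3 diets, so diet and slide were partly confounded. All values below are log2 ratios of a rat's RNA to the pool, or differences between such ratios. The scale of a ratio is set by the pool for each probe, so levels of different genes cannot be compared. None of the 25205 probes differed between any 2 diets at an adjusted p of 0.05 in the fit over all arrays (limma, Benjamini-Hochberg), and the lowest adjusted p was 0.529 for HPD against LFD, 0.995 for HPD against HFD and 1.00 for HFD against LFD. Without adjustment 716, 761 and 506 probes had a p under 0.05 in these comparisons.

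HPD rats had the lower mean for all 10 genes against LFD rats and for 9 of the 10 against HFD rats, but no gene passed the test in either comparison. Against LFD the background was that 46.1% of all tested probes were lower in HPD, and the median difference of the 10 genes was -0.19 (range -0.46 to -0.02), beside 0.02 over all probes. Against HFD the background was 47.7% of probes lower in HPD, and the median difference was -0.24 (range -0.62 to 0.47), beside 0.01 over all probes. HFD rats had the lower mean for 4 and the higher mean for 6 of the 10 genes against LFD rats, where 48.5% of all probes were lower, with a median difference of 0.03 beside 0.01 over all probes. The counts depended on single arrays. Leaving out 1 array at a time gave 7 to 10 genes lower in HPD than in LFD, with 7 without HPD replicate 4 and 8 without LFD replicate 2, and 7 to 9 lower in HPD than in HFD, with 7 without HFD replicate 2. LFD replicate 6 held the lowest LFD value for each of the 10 genes except Mgll. LFD replicate 2 held the highest for Plin3, Mgll, Abcg1, Lrp1 and Cd36. Without LFD replicate 6, 7 of the 10 genes were lower in HFD than in LFD. The median difference for HPD minus LFD was -0.10 when LFD replicate 2 was left out, -0.32 when LFD replicate 6 was left out and -0.28 when both were. Without the first slide the medians were -0.10 for HPD minus LFD and -0.12 for HPD minus HFD. At an adjusted p of 0.05 the share of all probes called was 0% in each of the 3 comparisons. An unadjusted p under 0.05 with the lower mean in HPD was found for 1 of the 10 genes against LFD, where 1.21% of all probes had one, and for 2 of the 10 against HFD, where 1.24% had one. With the higher mean in HPD, none of the 10 genes had such a p, while 1.63% of all probes had one against LFD and 1.78% against HFD. For HFD against LFD none of the 10 genes had such a p, while 1.19% of all probes had one with the lower mean in HFD and 0.821% with the higher mean. The HPD comparisons share their HPD arrays and the LFD comparisons their LFD arrays, so the counts are not independent of each other. The rats of any 2 diets overlapped for all 10 genes. Over all probes, all HPD arrays lay below all LFD arrays for 0.0317% and below all HFD arrays for 0.0952%, and above all LFD arrays for 0.0476% and above all HFD arrays for 0.147%. All HFD arrays lay below all LFD arrays for 0.0436% of the probes and above them for 0.0397%. Any difference among the 3 diets, by limma's F test, was likewise found for 0 probes at an adjusted p of 0.05, with 581 under an unadjusted p of 0.05, none of them a probe of the 10 genes.

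**Figure D1:**
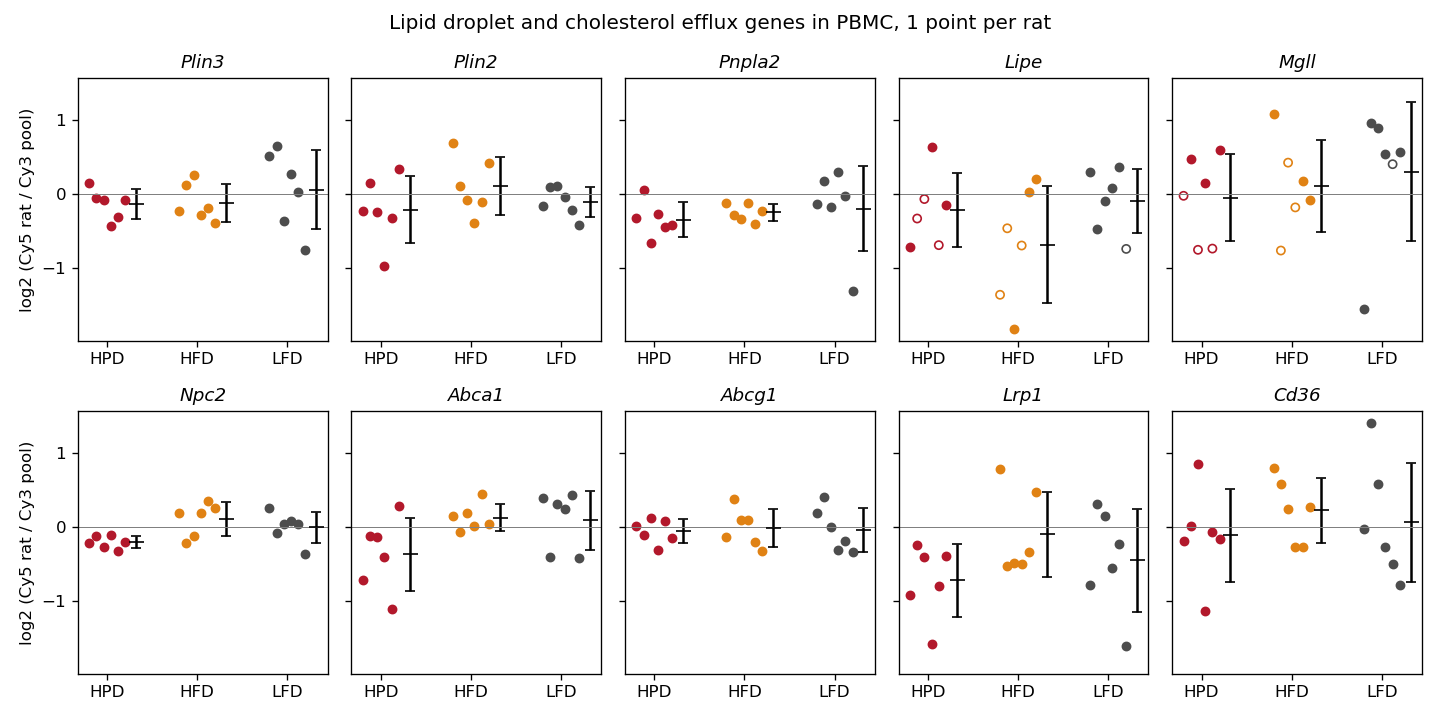
Log2 ratio of Cy5 (rat) to Cy3 (pool) for the 10 genes, 1 point per rat, with HPD, HFD and LFD from left to right and the mean ± SD beside each group (n = 6 each). Open points are arrays on which the Cy5 signal was not well above background. The groups overlap for every gene, and the 6 HPD points of Npc2 lie within -0.32 to -0.11.

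**Figure D2:**
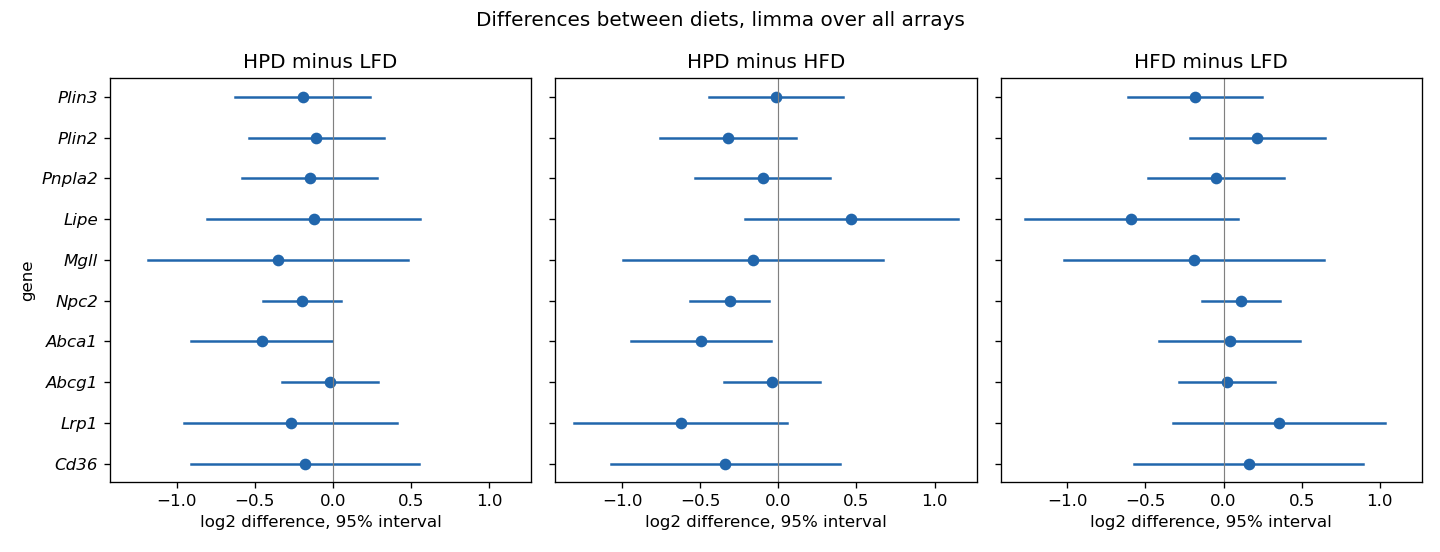
Log2 difference between diets for each gene with its 95% interval from limma, for HPD minus LFD, HPD minus HFD and HFD minus LFD on the same axis. The intervals of Abca1 in both HPD comparisons and of Npc2 in HPD minus HFD lie below 0 before adjustment, and all others include 0.

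Plin3, a perilipin that moves from the cytosol onto nascent droplets, was read by a probe that the file headers place at chr20:23019886-23019945 of rn4. Its log2 ratios had a lowest, median and highest value of -0.43, -0.08 and 0.15 in HPD rats, of -0.40, -0.21 and 0.25 in HFD rats, and of -0.75, 0.15 and 0.65 in LFD rats. The LFD rats held both extremes, replicate 6 at the bottom and replicate 2 at the top, so HPD and HFD lay wholly inside the LFD range. The difference was -0.19 ± 0.20 (SE) for HPD minus LFD, -0.01 ± 0.20 for HPD minus HFD and -0.18 ± 0.20 for HFD minus LFD. Without LFD replicate 2 the HPD minus LFD value was -0.08 and the HFD minus LFD value -0.06, and without LFD replicate 6 they were -0.36 and -0.34. The RefSeq table on GRCr8 places the Plin3 gene on chromosome 9 and the file headers place the probe on another chromosome of rn4, so the identity of this probe rests on the gene identifier in its description.

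Plin2, the perilipin that is present on droplets of most cells and is degraded when not bound to them, had its probe at chr5:105705820-105719096 of rn4. HPD rats ranged from -0.97 (replicate 4) to 0.34 (replicate 7) with a median of -0.23. HFD rats ranged from -0.39 to 0.69 (replicate 1) with a median of 0.01, and LFD rats from -0.42 to 0.11 with a median of -0.10. A single HPD rat was thus far below the rest, and the top values were those of HFD replicates 1 and 6 and of HPD replicate 7. The difference was -0.11 ± 0.21 for HPD minus LFD, -0.32 ± 0.21 for HPD minus HFD and 0.22 ± 0.21 for HFD minus LFD. Without HPD replicate 4 the HPD minus LFD value turned to 0.05 and the HPD minus HFD value was -0.17.

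Pnpla2 encodes the lipase ATGL, which takes the first fatty acid off triglyceride, and its probe lay at chr1:201645179-201645338 of rn4. It ranged from -0.66 to 0.06 in HPD rats with a median of -0.38. In HFD rats the range was -0.41 to -0.12 with a median of -0.25, and in LFD rats it was -1.31 (replicate 6) to 0.29 with a median of -0.08. LFD replicate 6 alone lay below every HPD and HFD rat. The difference was -0.15 ± 0.21 for HPD minus LFD, -0.10 ± 0.21 for HPD minus HFD and -0.05 ± 0.21 for HFD minus LFD. Without LFD replicates 2 and 6 the HPD minus LFD value was -0.34 and the HFD minus LFD value -0.24. Without LFD replicate 6 alone the HPD minus LFD value was -0.37 and the HFD minus LFD value -0.27, both still short of the test, with adjusted p = 0.473 for HPD minus LFD (limma), the lowest of any of the 10 genes in 36 fits over the alternatives and left-out arrays.

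Lipe, hormone-sensitive lipase, which cleaves diglyceride and cholesteryl ester, and Mgll, monoglyceride lipase, which frees the last fatty acid, were both dim in PBMC. Each was well above background on 3 HPD, 3 HFD and 5 LFD arrays. A second Lipe probe, at chr1:80672630-80672689 of rn4, was well above background on 1 of 18 arrays and was not tested. The Lipe probe that was tested, at chr1:80664872-80664931, ranged from -0.72 to 0.64 in HPD rats, from -1.82 (replicate 3) to 0.21 in HFD rats and from -0.74 to 0.36 in LFD rats, with medians of -0.24 in HPD, -0.58 in HFD and -0.01 in LFD. It was the 1 gene of the 10 with a higher mean in HPD than in HFD, by 0.47 ± 0.32, while the difference was -0.12 ± 0.32 for HPD minus LFD and -0.59 ± 0.32 for HFD minus LFD. Without HFD replicate 3 the HPD minus HFD value was 0.24 and the HFD minus LFD value -0.36. By a normexp background model the HFD minus LFD value was -0.18, whether or not marked spots were used in its fit. That setting adds a constant of 50 to signals, while this probe's mean Cy5 signal was 23.6, so its ratios are drawn toward 0. Without LFD replicates 2 and 6 the Lipe values were -0.38 for HPD minus LFD and -0.85 for HFD minus LFD. For Mgll, at chr4:122904962-122905021, the range was -0.76 to 0.60 in HPD rats, -0.77 to 1.08 in HFD rats and -1.56 (replicate 1) to 0.96 in LFD rats, with medians of 0.06 in HPD, 0.05 in HFD and 0.56 in LFD. Its differences were -0.35 ± 0.40 for HPD minus LFD, -0.16 ± 0.40 for HPD minus HFD and -0.19 ± 0.40 for HFD minus LFD. Without LFD replicate 1, the lowest array, HPD minus LFD was -0.72 and HFD minus LFD -0.56. Without LFD replicates 2 and 6 they were -0.12 and 0.04. The SEs of both genes were above the median of 0.21 over all probes.

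Npc2 encodes the soluble protein that binds cholesterol inside lysosomes and passes it to the membrane carrier NPC1, and its probe lay at chr6:108794590-108798310 of rn4. The 6 HPD rats were close together, from -0.32 (replicate 5) to -0.11 (replicate 4) with a median of -0.20. HFD rats ranged from -0.21 (replicate 2) to 0.35 (replicate 5) with a median of 0.19, and LFD rats from -0.36 (replicate 6) to 0.26 (replicate 1) with a median of 0.04. All 6 HPD rats lay below the mean of the HFD rats and below that of the LFD rats, but HFD replicates 2 and 3 and LFD replicate 6 fell in or under the HPD range. The means were -0.20 ± 0.08 in HPD, 0.11 ± 0.22 in HFD and 0.00 ± 0.21 in LFD (SD, n = 6 each). The HPD minus HFD difference was -0.31 ± 0.12 (95% interval -0.56 to -0.06), 80.6% of the HFD level, with an unadjusted p of 0.0176 and an adjusted p of 0.995 (limma). It ranked 241 among 25205 probes by p. HPD minus LFD was -0.20 ± 0.12 (95% interval -0.45 to 0.05), and HFD minus LFD was 0.11 ± 0.12. Without LFD replicates 2 and 6 the values were -0.31 for HPD minus LFD and 0.00 for HFD minus LFD. Across 16 other ways of processing the data, HPD minus HFD lay between -0.37 and -0.25 and HPD minus LFD between -0.27 and -0.15.

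Abca1, the pump that loads phospholipid and cholesterol onto lipid-poor apolipoprotein A-I, was read by a probe at chr5:70493613-70493672 of rn4. HPD rats ranged from -1.11 (replicate 5) to 0.29 (replicate 7) with a median of -0.27. HFD rats ranged from -0.07 (replicate 2) to 0.45 (replicate 5) with a median of 0.09, and LFD rats from -0.42 (replicate 6) to 0.43 (replicate 5) with a median of 0.27. Of the HPD rats, 5 were below every HFD rat, while HPD replicate 7, the array with conflicting labels, was the highest of its group. Of the LFD rats, 4 lay between 0.24 and 0.43, and replicates 2 and 6, the arrays that stood apart, lay at -0.41 and -0.42 within the HPD range.

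The Abca1 mean was -0.37 ± 0.50 in HPD, 0.13 ± 0.18 in HFD and 0.09 ± 0.40 in LFD (SD, n = 6 each). HPD minus LFD was -0.46 ± 0.21 (95% interval -0.91 to -0.01), 72.9% of the LFD level, with an unadjusted p of 0.0472 and an adjusted p of 1.00 (limma). HPD minus HFD was -0.50 ± 0.21 (95% interval -0.95 to -0.04), 71.0% of the HFD level, with an unadjusted p of 0.0330 and an adjusted p of 0.995 (limma). HFD minus LFD was 0.04 ± 0.21, with a 95% interval of -0.41 to 0.49. By p the gene ranked 675 among 25205 probes for HPD against LFD and 475 for HPD against HFD. Leaving out both LFD arrays that stood apart gave -0.71 ± 0.21 for HPD minus LFD with an adjusted p of 0.781 (limma), and -0.21 ± 0.21 for HFD minus LFD. With slide as a block the values were -0.67 ± 0.26 for HPD minus LFD and -0.78 ± 0.26 for HPD minus HFD. Within slides, HPD minus LFD was -1.42 on slide 3 (1 array against 1) and -0.59 on slide 4 (2 against 2), and HPD minus HFD was -0.38 on slide 2 (3 against 1) and -1.14 on slide 3 (1 against 2). The mean was lower in HPD in all 16 other ways of processing and in all 18 fits that left out 1 array, between -0.75 and -0.20 against LFD and between -0.78 and -0.20 against HFD, and no fit brought an adjusted p under 0.05.

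Abcg1, the pump that exports cholesterol to mature HDL, had close means in the 3 diets. Its probe, at chr20:9459359-9459418 of rn4, ranged from -0.31 to 0.13 in HPD rats with a median of -0.05. The range was -0.32 to 0.39 in HFD rats with a median of -0.02, and -0.33 to 0.41 in LFD rats with a median of -0.09. The groups overlapped, and the differences were -0.02 ± 0.15 for HPD minus LFD, -0.04 ± 0.15 for HPD minus HFD and 0.02 ± 0.15 for HFD minus LFD. The 95% interval of HPD minus HFD reached from -0.35 to 0.27. Whether the 2 pumps responded differently to HPD was not tested.

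Lrp1, a large endocytic receptor that takes up apolipoprotein E-bearing remnants, had 2 probes, both well above background on all 18 arrays. The brighter probe lay at chr7:67521714-67521773 of rn4 and ranged from -1.58 (replicate 4) to -0.24 in HPD rats with a median of -0.60. The range was -0.53 to 0.78 (replicate 1) in HFD rats with a median of -0.41, and -1.61 (replicate 6) to 0.31 in LFD rats with a median of -0.39. All 6 HPD rats were below the HFD mean, which HFD replicates 1 and 6 held up, since the other 4 HFD rats lay between -0.53 and -0.33 and among the HPD rats. The difference was -0.27 ± 0.32 for HPD minus LFD, -0.62 ± 0.32 for HPD minus HFD (unadjusted p of 0.0696, adjusted p of 0.995, limma) and 0.35 ± 0.32 for HFD minus LFD. Without LFD replicate 6 it was -0.50 for HPD minus LFD and 0.12 for HFD minus LFD. The dimmer probe, at chr7:67565586-67565793, gave -0.14 ± 0.22 for HPD minus LFD, -0.13 ± 0.22 for HPD minus HFD and -0.01 ± 0.22 for HFD minus LFD. Both probes were lower in mean in HPD, but the HPD minus HFD difference of the dimmer probe was much smaller. The sign of the dimmer probe also depended on the processing. In a deposited table of log2 values, used as an alternative, it gave 0.16 for HPD minus LFD and 0.08 for HPD minus HFD. Without LFD replicate 5 its HPD minus LFD value was 0.03.

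Cd36, a scavenger receptor for oxidised lipoproteins and long-chain fatty acids that platelets and monocytes carry, was read by 10 spots of 1 probe at chr4:13518295-13519542 of rn4. HPD rats ranged from -1.13 (replicate 4) to 0.85 (replicate 3) with a median of -0.11. HFD rats ranged from -0.27 to 0.80 (replicate 1) with a median of 0.26, and LFD rats from -0.79 (replicate 6) to 1.40 (replicate 2) with a median of -0.15. The top and bottom of the LFD group were again the arrays that stood apart. The difference was -0.18 ± 0.35 for HPD minus LFD, -0.34 ± 0.35 for HPD minus HFD and 0.16 ± 0.35 for HFD minus LFD, and HPD minus LFD was 0.09 without LFD replicate 2. Without LFD replicates 2 and 6 the values were -0.06 for HPD minus LFD and 0.28 for HFD minus LFD.

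Marker genes of blood cell types were measured beside these genes, because Lrp1, Cd36, Plin2 and Abca1 are expressed in monocytes and Cd36 also in platelets. In RNA of a whole PBMC sample, fewer cells of a type and less RNA per cell cannot be told apart. For the label PBMC, 11 of 11 T cell, 7 of 7 B cell, 9 of 9 NK cell and 13 of 15 monocyte markers on the array were well above background on all 18 arrays, as were 10 of 10 platelet, 12 of 13 erythroid and 3 of 11 neutrophil markers. No neutrophil marker was below this level on every array. Of the monocyte markers only Msr1, a scavenger receptor of macrophages, was never above background. Of 8 adipocyte markers on the array, 2 (Cfd and Retn) were well above background on all 18 arrays, while Lep and Aqp7 never were. Cfd differed by -0.89 ± 0.41 for HPD minus LFD and -0.99 ± 0.41 for HPD minus HFD. Retn differed by -0.05 ± 0.62 and 0.33 ± 0.62, and neither gene passed the test. The unadjusted p of Cfd was 0.0449 for HPD minus LFD and 0.0270 for HPD minus HFD (limma).

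Monocyte markers were lower in mean in HPD for 14 of 14 genes tested against LFD (median difference -0.22) and for 14 of 14 against HFD (median -0.40), with 0 past the test. Against HFD, 2 of the 14 had an unadjusted p under 0.05 (limma): Cd14 (-1.53, p of 0.0123) and Vcan (-1.91, p of 0.0228). Against LFD none had one. Their per-array mean ranged from -1.50 to 0.38 in HPD rats, from -0.50 to 0.87 in HFD rats and from -0.50 to 0.43 in LFD rats. Their summed Cy5 signal ranged from 24311 to 99210 intensity units in HPD, from 47236 to 187029 in HFD and from 46157 to 122285 in LFD. The lowest monocyte mean was that of HPD replicate 4, the array on which Plin2, Lrp1 and Cd36 were lowest in HPD. Plin3 and Abcg1 were also lowest in HPD on that array, while Npc2 and Lipe were highest in HPD there. The highest monocyte means were those of HFD replicates 1 and 6, the arrays on which Plin2 and Lrp1 were highest. On HFD replicate 6, Plin3 and Abcg1 were lowest in HFD. The lowest Abca1 and Npc2 values in HPD were on replicate 5, whose monocyte mean was -0.54.

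Platelet markers were lower in mean in HPD for 10 of 10 genes against LFD (median -0.65) and for 10 of 10 against HFD (median -0.29). Their summed signal ranged from 170571 to 370081 in HPD, from 112648 to 810421 in HFD and from 196931 to 1059640 in LFD. Erythroid markers were lower in mean in HPD for 13 of 13 genes against LFD (median -0.78) and for 13 of 13 against HFD (median -0.74), with summed signals of 71768 to 200718 in HPD, 103694 to 331882 in HFD and 71798 to 284947 in LFD. NK cell markers were lower in mean in HPD for 8 of 9 genes against LFD (median -0.16) and for 8 of 9 against HFD (median -0.20), with summed signals of 63801 to 113560 in HPD, 76586 to 128098 in HFD and 48879 to 160032 in LFD. T cell markers had medians of -0.01 for HPD minus LFD, where their mean was 0.01, and 0.10 for HPD minus HFD, with 6 of 11 and 4 of 11 genes lower in HPD. B cell markers had medians of 0.09 for HPD minus LFD and -0.05 for HPD minus HFD, with 2 of 7 and 4 of 7 lower in HPD. Of the neutrophil markers 6 of 11 were tested, with medians of -0.05 for HPD minus LFD and 0.09 for HPD minus HFD, where their mean was -0.13, and with 3 of 6 and 2 of 6 lower in HPD. Their summed signals were 776 to 2480 in HPD, 698 to 2563 in HFD and 833 to 2357 in LFD. Among the lists of this paragraph, an unadjusted p under 0.05 (limma) in a comparison with HPD was found for 2 genes, both lower in HPD. They were the erythroid marker Add2 against LFD (p of 0.0486) and the NK cell marker Klrb1b against HFD (p of 0.0294). No marker of these lists passed the test, and the part of cell composition in the values of the 10 genes was not tested.

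**Figure D3:**
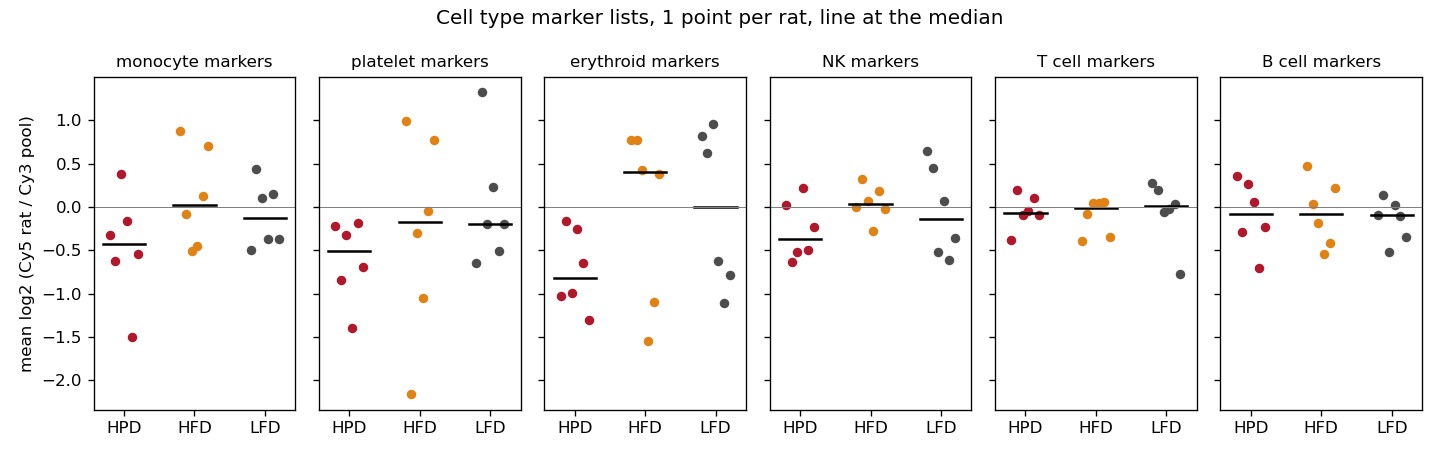
Mean log2 ratio of 6 marker lists on each array, 1 point per rat, with HPD, HFD and LFD from left to right and a line at each group's median. The monocyte means run from -1.50 to 0.38 in HPD, from -0.50 to 0.87 in HFD and from -0.50 to 0.43 in LFD, and the T cell means are closest together.

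Other genes of the same pathways gave no call in any comparison, and none of those tested had an unadjusted p under 0.05. Of further droplet coat and triglyceride turnover genes 11 of 18 were tested, and 10 were lower in mean in HPD than in LFD (median -0.17), 7 lower in HPD than in HFD (median -0.23) and 4 lower in HFD than in LFD (median 0.04). The ATGL activator Abhd5 differed by -0.18 ± 0.31 for HPD minus LFD and by -0.41 ± 0.31 for HPD minus HFD. The ATGL inhibitor G0s2 differed by -0.17 ± 0.33 and -0.45 ± 0.33 in the same comparisons, so activator and inhibitor had the same sign. Lipa, the acid lipase of lysosomes, differed by -0.24 ± 0.26 for HPD minus LFD and by -0.36 ± 0.26 for HPD minus HFD. The adipocyte and muscle perilipins Plin1 and Plin5 were on the array and did not pass the filter on dim signals.

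Of further cholesterol handling genes 16 of 19 were tested, with 10 lower in mean in HPD than in LFD (median -0.03), 8 lower in HPD than in HFD (median -0.01) and 9 lower in HFD than in LFD (median -0.05). Both liver X receptor genes, which encode the sensors that turn on Abca1 and Abcg1, were measured: Nr1h3 differed by -0.23 ± 0.27 for HPD minus LFD and -0.24 ± 0.27 for HPD minus HFD, and Nr1h2 by -0.09 and 0.05. Mylip, a ubiquitin ligase and liver X receptor target, differed by -0.07 for HPD minus LFD and -0.19 for HPD minus HFD. Apoe, an acceptor of effluxed cholesterol and another such target, differed by 0.04 and 0.17, the HDL receptor Scarb1 by -0.04 and -0.17, and the cholesterol-esterifying enzyme Soat1 by 0.14 and -0.27. Of lipoprotein and fatty acid uptake genes 9 of 12 were tested, with 7, 5 and 6 lower in mean for HPD against LFD, HPD against HFD and HFD against LFD (medians -0.06, -0.03 and -0.05).

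The processing changed which of the 10 genes came nearest to the test. Both normexp settings below also added a constant of 50 to each corrected signal and normalized the dyes anew by loess. Such a constant draws ratios toward 0, most where signals are dim. The parts of the background model, the constant and the loess step were not tested apart. A normexp background model fitted to every spot, including spots the scanner software had marked, pressed the ratios of LFD replicate 6 toward 0: Pnpla2 on that array was -1.31 from the processed signals, -1.01 from normexp fitted without the marked spots, and -0.20 from normexp on all spots. For HPD minus LFD this gave -0.24 ± 0.10 with an unadjusted p of 0.0211 for Pnpla2 by normexp on all spots, against -0.15 ± 0.16 (p of 0.358) by normexp without the marked spots and -0.15 ± 0.21 (p of 0.481) from the processed signals. Plin3 gave -0.28 ± 0.13 (unadjusted p of 0.0387), -0.19 ± 0.16 (p of 0.266) and -0.19 ± 0.20 (p of 0.354) in the same order. Abca1 moved the other way, with -0.20 ± 0.10 by normexp on all spots, -0.25 ± 0.12 by normexp without the marked spots and -0.46 ± 0.21 from the processed signals. Its unadjusted p was 0.0660, 0.0477 and 0.0472 in that order. Npc2 gave -0.21, -0.21 and -0.20, with an unadjusted p of 0.0396, 0.0663 and 0.113, so its difference hardly moved while its p crossed 0.05. The adjusted p for these 4 genes under normexp on all spots was 0.826 (limma).

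**Figure D4:**
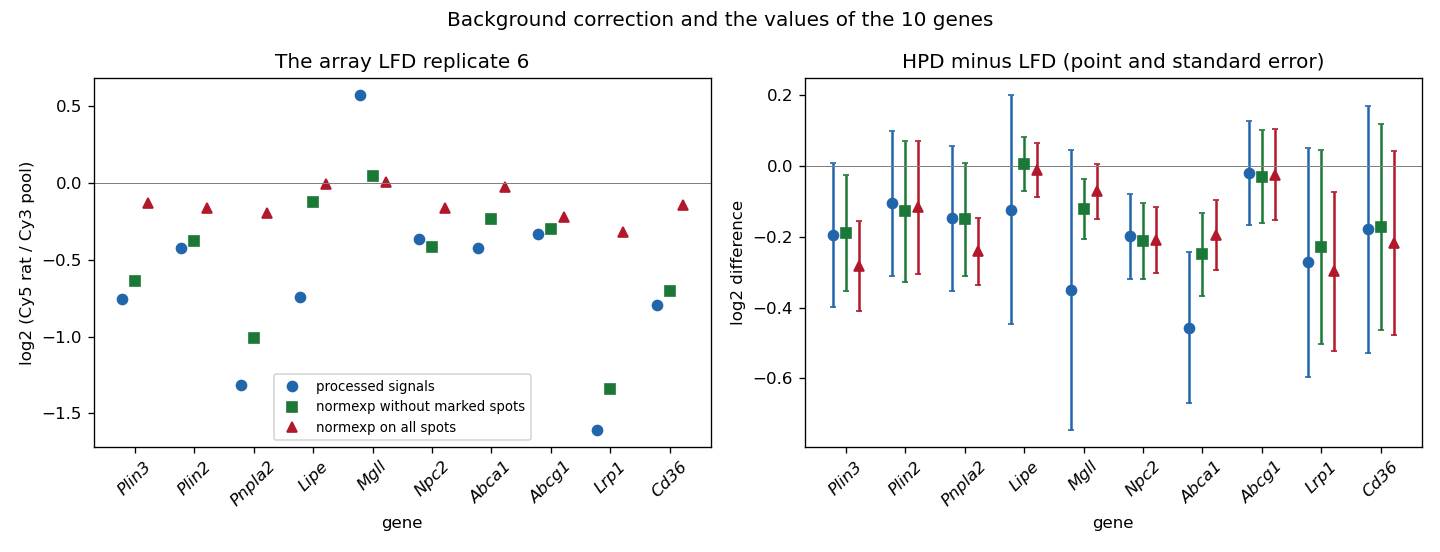
Left, the log2 ratio of each gene on the array of LFD replicate 6 from the processed signals (circles), from normexp without marked spots (squares) and from normexp on all spots (triangles). Right, HPD minus LFD with its standard error under the same settings. On the left, Pnpla2 lies at -1.31 from the processed signals and at -0.20 by normexp on all spots. On the right, the standard errors of Pnpla2 and Plin3 are narrowest by normexp on all spots.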

How the data were processed

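RNA of PBMC was measured on 18 Agilent 2-colour arrays, 6 per diet. Each array came with a deposited scanner file, for which the submitters' processing notes name Agilent Feature Extraction 10.5.1.1. Per the file headers, the processed signals in it are spot intensity values that the scanner software had corrected for background and normalized between dyes. A second deposited table, of log2 values for these arrays, served as an alternative. How it was made is not stated in any source used here, and its centring stays unknown. The median over all its columns together was 8.40. Gene-centred values of this table correlated at 0.886 with those of the scanner files, so its direction is the same over all probes together, though not for every probe. It lacks both Lipe probes and the Mgll probe.

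The log2 ratio of processed Cy5 to Cy3 was taken for 43379 non-control spots. Between 122 and 228 spots per array marked as outliers were treated as missing, and repeated spots were averaged to 1 value per probe. A probe was kept if its Cy5 signal was well above background on 5 or more of the 18 arrays (25205 of 41012). Group means were fitted by limma 3.58.1 (R 4.3.3) over all arrays, with Benjamini-Hochberg adjustment over 25205 probes and a threshold of 0.05, and the fit was tested on simulated data. A normexp model on all spots compressed the ratios of several arrays, so it is an alternative. Both normexp alternatives added a constant of 50 to each background-corrected signal and then normalized the dyes by loess. The number of arrays limits the precision.

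All probes of the 10 genes are named, and counts use the probe of a gene with the brighter pool signal. Pathway genes in the text are a named subset of 3 lists, and some results are not reported here. The 10 genes, the lists and the tests were chosen with earlier results of these data known. Plin4, Hilpda, Npc1 and 9 marker genes (Elane, Gp1ba, Tubb1, Hba-a2, Lck, Cd79a, Pax5, Fcrla and Eomes) had no matched probe and were not analysed here. Probe positions are those of rn4 per the file headers, and the place of a probe in its gene was not analysed. Alternatives changed the background correction, the scaling, the filter, the outlier spots, the slides, the replicate numbers, the array weights and the samples used.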

Additional observations from a re-analysis of the deposited data

Results flagged for a closer look

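In 33 groups, each the 6 arrays of 1 diet for 1 tested probe of the 10 genes, 2 had a single array far from the others by Dixon's criterion, which chance meets in about 1 of 20 groups. Pnpla2 on LFD replicate 6 was -1.31, and the nearest other LFD array was at -0.17, a gap of 0.71 of the group's range. Mgll on LFD replicate 1 was -1.56, and the nearest other LFD array was at 0.40, a gap of 0.78 of the range. LFD replicate 6 is also an array whose ratios were widely spread, and the Mgll probe was well above background on 11 of 18 arrays.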

How the results depend on the processing

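No gene of the 10 was called in any of 36 fits over all settings and left-out arrays. The count of probes called for HPD against LFD was 2 with array quality weights and 0 to 1 when each array was left out, with 1 without LFD replicate 2. None was a probe of the 10 genes. The count of genes lower in HFD than in LFD, 4 of 10, was 2 without slide 1 and 4 to 7 when each array was left out, and the median of those genes was -0.04 with array quality weights and -0.05 without LFD replicate 6. The count lower in HPD was 7 against LFD and 7 against HFD without slide 1, and 8 against LFD and 8 against HFD with slide as a block. Without LFD replicates 2 and 6, an alternative chosen after seeing the data, 9 of 10 genes had a lower mean in HPD than in LFD rats (median -0.28). Within slides, 8 and 9 of 10 genes were lower in HPD than in LFD (slides 3 and 4), 8 and 8 lower in HPD than in HFD (slides 2 and 3), and 5, 8 and 1 lower in HFD than in LFD (slides 1, 3 and 5). The samples share replicate numbers, and same-numbered arrays of different diets correlated between -0.32 and 0.23 in their deviations from the group means. Differently numbered arrays were not set beside them, so whether the numbers pair the samples was not tested. With the replicate number as a block, Abca1 was -0.65 for HPD minus LFD and -0.69 for HPD minus HFD, Npc2 was -0.22 and -0.33, the counts of genes lower in HPD stayed at 10 and 9, and 0 probes were called. With the array of conflicting labels counted as HFD, Abca1 was -0.59 for HPD minus LFD and -0.65 for HPD minus HFD. Averaging HFD replicates 1 and 6, the most alike arrays, moved HFD minus LFD from 0.22 to 0.13 for Plin2 and from 0.35 to 0.21 for Lrp1. Leaving out 1 array at a time placed Abca1 between -0.59 and -0.31 for HPD minus LFD and between -0.63 and -0.35 for HPD minus HFD. The dim signals of Lipe and Mgll limit what can be said of these lipases.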

Other observations

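Genes whose ratios were most like those of each member across the 18 arrays, after each diet's mean was taken off, were looked up among 9196 named genes well above background on all arrays. They are given as a description, since arrays share spread and cell makeup. Plin3 was most like Osbpl5 (Pearson r = 0.97), and Pnpla2 most like Psmd13 (0.96). Plin2 reached 0.90 with Sqor and with Lsp1. Lrp1 was most like Blvra (0.98), Emilin2 (0.96) and Nrp1 (0.95), and Cd36 most like Mal (0.96), Samsn1 (0.94) and Acp2 (0.94). Abcg1 was most like Wdr20 (0.96). Abca1 reached lower values, with Casp9 (0.78), Bax (0.76) and Iah1 (0.75), and so did Npc2, with Atp5f1c (0.84), Apmap (0.83) and Zfp148 (0.81). Of the dim lipases, Lipe was most like Arl2 (0.72) and Mgll most like Aph1b (0.82, and 0.45 without slide 1). Among the members themselves the highest values were 0.81 for Plin2 with Lrp1 and 0.73 for Lrp1 with Cd36, while the 2 probes of Lrp1 reached 0.41.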
